A study of Mus musculus with 8 samples.

Results

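Transcript levels of 10 genes encoding transcription factors of the alveolar epithelium were examined in sorted lung epithelial cells of mice: Nkx2-1, Foxa1, Foxa2, Gata6, Cebpa, Etv5, Klf5, Grhl2, Elf5 and Sox9. They were picked by name, with earlier results of these data known, and each symbol matched 1 of the 43432 Ensembl genes in the count table. Of the 10, 9 passed the low-count filter that left 14906 genes for testing, and Sox9 did not. The data were 8 RNA-seq libraries in 3 groups, made from EpCAM+CD45- lung cells of C57BL/6J mice aged 14 weeks. ChiaRed is a reporter of the Chia1 gene, which encodes acidic mammalian chitinase (AMCase). The C/C group (n = 2) held ChiaRed+ cells of mice homozygous for the ChiaRed allele, and the C/+ group (n = 3) held ChiaRed+ cells of heterozygous mice. The WT group (n = 3) held the whole EpCAM+CD45- gate of wild-type mice, with no reporter sort, so genotype and reporter sort both separate it from the other groups. The series set out to compare transcripts between AMCase-expressing cells and wild-type epithelial cells.

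NKX2-1 is the homeodomain protein that specifies lung epithelium and, with the forkhead pioneer factors FOXA1 and FOXA2 and with GATA6, binds the promoters of surfactant protein genes. CEBPA, a bZIP protein, and ETV5, an ETS protein induced by fibroblast growth factor (FGF) signalling, act in the maturation and maintenance of alveolar type 2 cells, which make surfactant. GRHL2 and KLF5 regulate epithelial junction and differentiation genes in many epithelia, and ELF5 and SOX9 mark the tips of the branching epithelium in the embryonic lung.

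Total counts per library were 41950581 and 46478577 in C/C, 17057216 to 30190458 in C/+ and 20232091 to 52319957 in WT. Chia1 had 0.365 and 1.45 CPM (counts scaled to a common library size with TMM factors) in C/C, 223 to 341 CPM in C/+ and 267 to 454 CPM in WT. Alveolar type 2 transcripts dominated all 8 libraries: 15 markers of these cells, one of them Etv5, summed to 312514 and 322127 CPM in C/C, 280102 to 291184 CPM in C/+ and 238875 to 271489 CPM in WT. The leukocyte gene Ptprc (CD45) stood at 0.118 to 1.80 CPM in the 8 libraries. Summed levels of 12 endothelial markers were 41.8 and 50.1 CPM in C/C, 557 to 939 CPM in C/+ and 63.5 to 293 CPM in WT, and those of 10 club cell markers were 492 and 722 CPM in C/C, 5190 to 9759 CPM in C/+ and 462 to 1123 CPM in WT. Those of 11 mesenchymal markers were 16.6 and 20.9 CPM in C/C, 116 to 253 CPM in C/+ and 18.9 to 48.6 CPM in WT. Both sexes were present, read from Xist: C/+ 1, WT 2 and WT 3 were male and the other libraries female. Whether each library is a separate animal is not stated in the labels, and p-values then measure only the spread between these libraries, which may be technical. In bulk RNA, fewer cells of a type and less RNA per cell cannot be told apart.

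The levels of each of the 9 tested factor genes were close across the groups, with changes of a size near the median of all tested genes. None was called in any of the 3 comparisons, where a call is a Benjamini-Hochberg adjusted p under 0.05 in edgeR's quasi-likelihood test over all 14906 genes. Given the shares of all tested genes called, a count of 0 among 9 does not set these genes apart. Between C/+ and WT, 0 of 9 were called, against 3.92% of all tested genes. At an unadjusted p under 0.05 there were 4, and DESeq2 called 1, Foxa2, of 1233 genes it called in all. In C/C against C/+, 0 of 9 were called, against 7.08% of all tested genes. At an unadjusted p under 0.05 there was 1, and DESeq2 called 1, Foxa1, of 1555 genes it called in all. In C/C against WT, 0 of 9 were called, against 2.98% of all tested genes. At an unadjusted p under 0.05 there were 3, and DESeq2 called 0, of 1408 genes it called in all. The share of all tested genes with such an unadjusted p was not counted, here or for the lists below. Nor was the number of genes that DESeq2 tested. Counts of either kind therefore cannot be read as an excess or a lack. The log2 fold changes (log2FC) ran over 27 values, 9 in each comparison, with a lowest of -0.32 for Etv5 in C/C against WT and a highest of 0.38 for Elf5 in C/+ against WT. Their 95% intervals reached fold changes of 0.689 to 1.58 in C/+ against WT, 0.705 to 1.76 in C/C against C/+, and 0.660 to 1.65 in C/C against WT. The median absolute log2FC of the 9 genes was 0.20 in C/+ against WT, 0.17 in C/C against C/+ and 0.19 in C/C against WT, and over all tested genes it was 0.20, 0.21 and 0.25 in those comparisons.

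**Figure D1:**
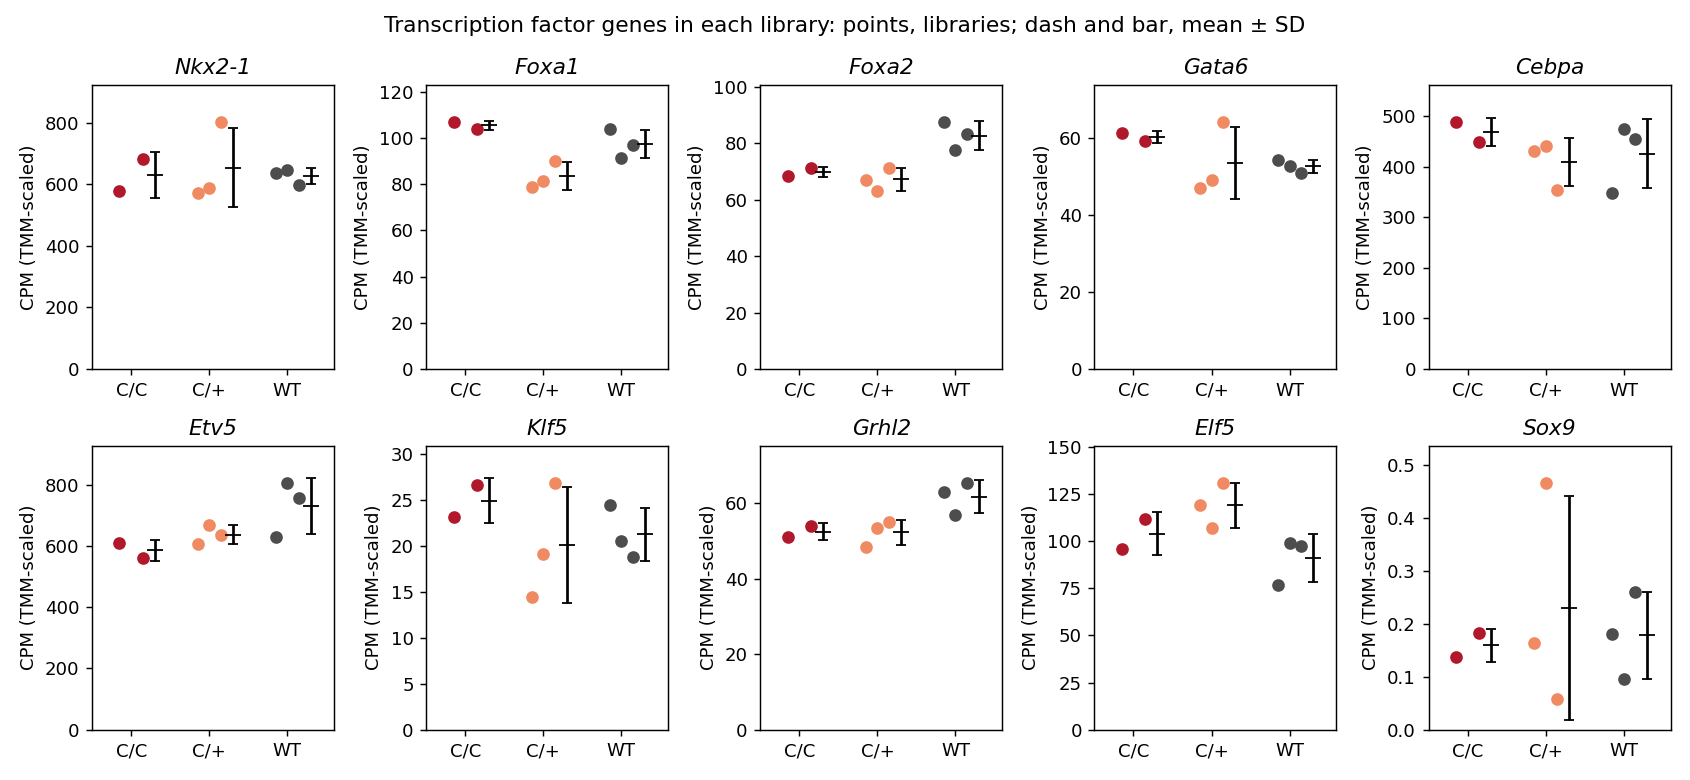
Level of each of the 10 genes in CPM (y axis, TMM-scaled, from 0) in the 2 C/C, 3 C/+ and 3 WT libraries (points), with mean ± SD beside them. In the 9 tested genes the highest library stood 1.35 to 1.87 times above the lowest, and Sox9 stood below 0.5 CPM in each library.

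Levels of different genes were compared per kilobase of annotated exon. By this measure Nkx2-1 was the most abundant of the 10 in each group, at 221 ± 26.1 CPM per kb in C/C, 229.8 ± 45.4 CPM per kb in C/+ and 220.5 ± 9.34 CPM per kb in WT (SD). It ranked 125th of 14808 tested genes with an annotated length in C/C, 94th in C/+ and 95th in WT. Cebpa and Etv5 followed, at 178 ± 10.5 and 143 ± 8.44 CPM per kb in C/C, 155 ± 18.0 and 155 ± 7.5 CPM per kb in C/+, and 162 ± 25.7 and 178 ± 22.4 CPM per kb in WT. The order of these 2 was not the same in all groups: Cebpa lay above Etv5 in both C/C libraries, and Etv5 lay above Cebpa in each of the 3 WT libraries, although the ranges over libraries overlapped in WT and in C/+.

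Foxa1 and Foxa2 formed the middle of the range with Elf5. Foxa1 averaged 31.8 CPM per kb in C/C, 25.1 in C/+ and 29.3 in WT, and Foxa2 29.5 in C/C, 28.4 in C/+ and 34.9 in WT, both per kb. Elf5 stood at 17.7 CPM per kb in C/C, 20.2 in C/+ and 15.5 in WT. Gata6, Grhl2 and Klf5 came next, between 3.87 CPM per kb for Klf5 in C/+ and 9.27 CPM per kb for Gata6 in C/C. From the Foxa pair downwards, neighbours in this order did not overlap between the libraries of a group, except Foxa2 and Foxa1 in C/+. With the longest transcript as the length, Elf5 stood above both Foxa genes in C/+ (36.4 CPM per kb, against 31.6 for Foxa2 and 26.2 for Foxa1), since its annotated exons sum to 5877 bases and its longest transcript has 3262.

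Among 64 transcription factor genes in 3 lists (the 10 genes, 28 paralogs from their families and 26 other regulators of lung epithelium), Nkx2-1, Cebpa and Etv5 took ranks 1 to 3 per length over all libraries. Foxa2 was 12th, Foxa1 14th, Elf5 20th, Gata6 30th, Grhl2 34th, Klf5 39th and Sox9 62nd. Within families, Foxa3, whose protein has its main role in liver, stood at 0.268 CPM per kb in C/C, 0.324 in C/+ and 0.125 in WT, and the transcript of ETV4, the close relative of ETV5, at 0.124 CPM per kb in C/C, 0.327 in C/+ and 0.103 in WT.

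**Figure D2:**
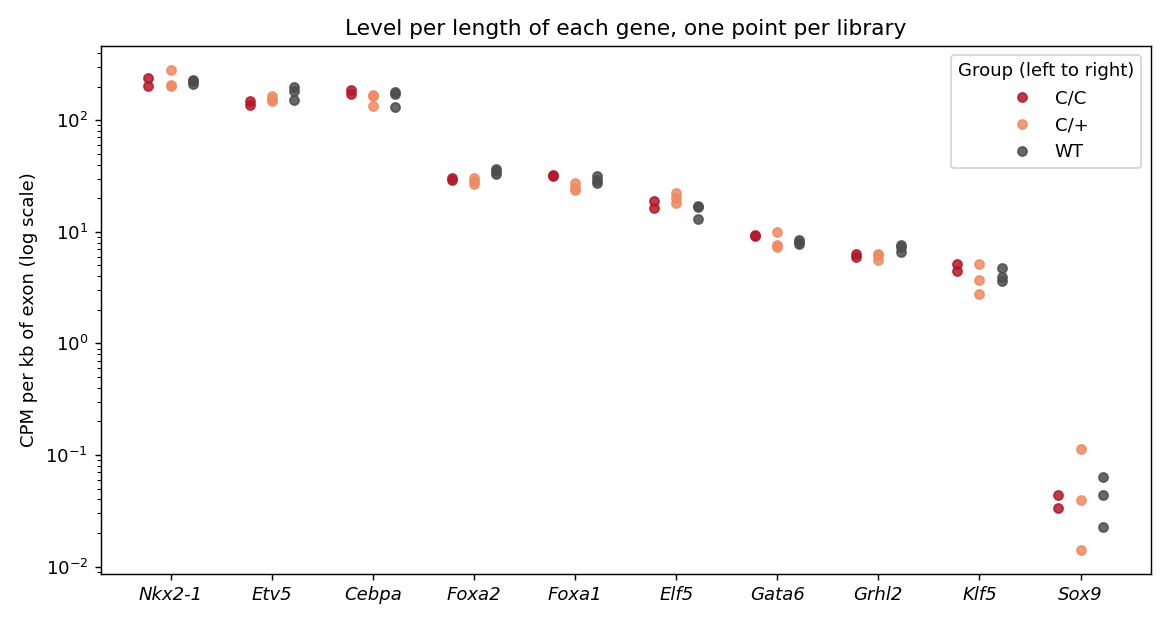
Level per length of the 10 genes (y axis, CPM per kb of exon, log scale), 1 point per library, with C/C left, C/+ in the middle and WT right for each gene. Nkx2-1, Etv5 and Cebpa lie above 100 CPM per kb, Sox9 lies below 0.12, and the groups of a gene lie close together.

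Nkx2-1 (ENSMUSG00000001496, chromosome 12, 56531958 to 56536908 on the minus strand of GRCm38) encodes the lung lineage factor itself. It had 577 and 682 CPM in C/C, 572, 586 and 802 CPM in C/+, and 637, 647 and 597 CPM in WT. The groups overlapped, and C/+ 3 was the highest of the 8 libraries. Its log2FC was 0.06 in C/+ against WT (SE 0.14, edgeR adjusted p = 0.847) and 0.01 in C/C against WT (SE 0.16, edgeR adjusted p = 0.987). The 95% interval of the fold change ran from 0.842 to 1.29 in C/+ against WT, from 0.758 to 1.22 in C/C against C/+, and from 0.791 to 1.27 in C/C against WT. The antisense gene Gm26973 overlaps 1566 bases of the Nkx2-1 gene but none of its exons. It stood at 8.18 CPM in C/C, 8.36 CPM in C/+ and 9.47 CPM in WT, with no call (edgeR adjusted p of 0.498 to 0.951).

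Foxa1 (ENSMUSG00000035451, chromosome 12, 57540628 to 57546916, minus strand) encodes a pioneer factor that opens compact chromatin. It had 107 and 104 CPM in C/C, 78.7, 81.6 and 90.3 CPM in C/+, and 104, 91.5 and 96.9 CPM in WT. All C/+ libraries lay below all others, and the C/C libraries lay at the top. No pair of groups overlapped, although C/C 2 and WT 1 both rounded to 104 CPM. In C/C against WT the log2FC was 0.12 (SE 0.10, edgeR adjusted p = 0.544). The log2FC was 0.34 in C/C against C/+ (SE 0.10, unadjusted p = 0.00651, edgeR adjusted p = 0.0744) and -0.22 in C/+ against WT (SE 0.09, edgeR adjusted p = 0.199). Without C/+ 3 the first of these passed the threshold (log2FC 0.40, edgeR adjusted p = 0.0386), and it did so in DESeq2's Wald test (log2FC 0.35, DESeq2 adjusted p = 0.0347). The adjusted p of this comparison ran from 0.0347 to 0.371 over all alternatives. Among female libraries Foxa1 had 107 and 104 CPM in C/C, against 81.6 and 90.3 CPM in C/+.

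Foxa2 (ENSMUSG00000037025, chromosome 2, 148042877 to 148046969, minus strand) encodes the related factor that shares many FOXA1 binding sites. It had 68.5 and 71.2 CPM in C/C, 67.1, 63.2 and 71.3 CPM in C/+, and 87.6, 77.5 and 83.3 CPM in WT. Every WT library lay above every reporter library, and C/C and C/+ overlapped. The log2FC was -0.30 in C/+ against WT (SE 0.09, unadjusted p = 0.00655, edgeR adjusted p = 0.0914) and -0.25 in C/C against WT (SE 0.10, edgeR adjusted p = 0.181). With sex as a covariate C/+ against WT passed (log2FC -0.32, edgeR adjusted p = 0.0461), as it did in DESeq2 (log2FC -0.31, DESeq2 adjusted p = 0.0468). Over all alternatives its adjusted p ran from 0.0461 to 0.223. Without WT 1, the only female WT library, the log2FC was -0.263 (edgeR adjusted p = 0.187). Within each sex the C/+ values were the lower ones: 63.2 and 71.3 CPM against 87.6 CPM in females, and 67.1 CPM against 77.5 and 83.3 CPM in males. The long noncoding RNA gene 9030622O22Rik, on the same strand 6766 bases from the Foxa2 start, had 5.59 CPM in C/C, 5.83 CPM in C/+ and 6.48 CPM in WT (edgeR adjusted p of 0.56 to 0.906).

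Gata6 (ENSMUSG00000005836, chromosome 18, 11052064 to 11085635, plus strand) encodes a zinc finger factor that cooperates with NKX2-1. It had 61.4 and 59.3 CPM in C/C, 47.2, 49.3 and 64.3 CPM in C/+, and 54.4, 52.8 and 51.0 CPM in WT. C/C lay above WT without overlap, and C/+ spanned both. The log2FC was 0.19 in C/C against WT (SE 0.13, edgeR adjusted p = 0.424). On the opposite strand, 1010001N08Rik shares 93 exonic bases with Gata6 and had 31 to 90 counts per library, against 1056 to 2744 for Gata6.

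**Figure D3:**
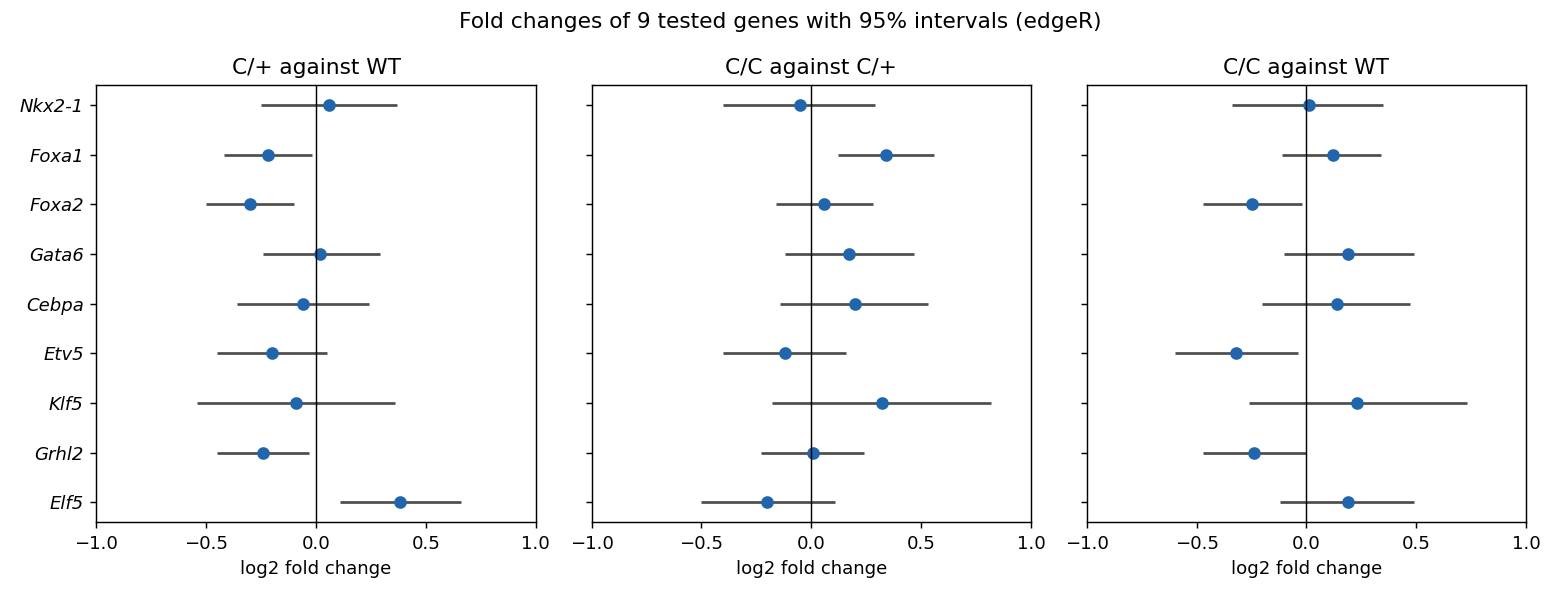
Log2 fold change (x axis) of the 9 tested genes in each comparison, with the 95% interval from the edgeR fit as a line. Points lie between -0.32 and 0.38, and no gene passed the threshold after adjustment over all tested genes.

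Cebpa (ENSMUSG00000034957, chromosome 7, 35119293 to 35121928, plus strand) encodes CCAAT/enhancer binding protein alpha. It had 488 and 449 CPM in C/C, 430.2, 441 and 354 CPM in C/+, and 348, 474 and 455 CPM in WT. Only C/C and C/+ did not overlap, and the lowest values were those of WT 1 and C/+ 3. Its log2FC was 0.20 in C/C against C/+ (SE 0.15, edgeR adjusted p = 0.521).

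Etv5 (ENSMUSG00000013089, chromosome 16, 22381309 to 22439719, minus strand) had 611 and 562 CPM in C/C, 606, 668 and 637 CPM in C/+, and 628, 807 and 757 CPM in WT. Both C/C libraries lay below the 3 WT libraries, while C/+ overlapped with both groups. In C/C against WT the log2FC was -0.32 (SE 0.13, unadjusted p = 0.0308, edgeR adjusted p = 0.176).

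Klf5 (ENSMUSG00000005148, chromosome 14, 99298691 to 99315036, plus strand), a Kruppel-like factor gene of proliferating and injured epithelia, had the widest intervals. It had 23.2 and 26.7 CPM in C/C, 14.4, 19.1 and 26.9 CPM in C/+, and 24.5, 20.5 and 18.8 CPM in WT. The 3 groups overlapped, with both the highest and the lowest of the 8 libraries in C/+. The interval of the fold change was 0.883 to 1.76 in C/C against C/+ and 0.689 to 1.29 in C/+ against WT.

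Grhl2 (ENSMUSG00000022286, chromosome 15, 37233036 to 37363569, plus strand) encodes the grainyhead-like factor that maintains E-cadherin and claudin transcription. It had 50.9 and 54.0 CPM in C/C, 48.5, 53.4 and 54.9 CPM in C/+, and 62.9, 56.8 and 65.4 CPM in WT. As with Foxa2, each WT library lay above each reporter library. The log2FC was -0.24 in C/+ against WT (SE 0.10, unadjusted p = 0.0289, edgeR adjusted p = 0.19) and -0.24 in C/C against WT (SE 0.11, unadjusted p = 0.0499, edgeR adjusted p = 0.226). Its antisense gene Gm16136 shares 169 exonic bases with it and had 465 to 1251 counts per library, against 934 to 3519 for Grhl2. The strand setting of the counting is not given in the sources used here, so reads over these bases cannot be told apart. Gm16136 had 20.4 CPM in C/C, 28.0 CPM in C/+ and 20.6 CPM in WT, with a log2FC of 0.44 in C/+ against WT (edgeR adjusted p = 0.106).

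Elf5 (ENSMUSG00000027186, chromosome 2, 103411688 to 103450989, plus strand), an ETS factor gene also known for mammary alveolar development, had the highest log2FC of the 9 genes. It had 95.8 and 112 CPM in C/C, 119, 107 and 131 CPM in C/+, and 76.5, 99.2 and 97.6 CPM in WT. Every C/+ library lay above every WT library, and C/C overlapped with both. The log2FC was 0.38 in C/+ against WT (SE 0.12, unadjusted p = 0.0112, edgeR adjusted p = 0.12). With sex as a covariate it passed (log2FC 0.45, edgeR adjusted p = 0.0381), and also with no low-count filter (log2FC 0.37, edgeR adjusted p = 0.0465). Over all alternatives the adjusted p ran from 0.0381 to 0.267. The last was that without WT 1 (log2FC 0.269), the lowest library for Elf5 and the only female WT library. Within females C/+ had 107 and 131 CPM against 76.5 CPM in WT, and within males 119 CPM against 99.2 and 97.6 CPM. Club, endothelial and mesenchymal markers were higher in these C/+ libraries too, as given above. So were 6 mesothelial markers, with sums of 58.5 to 178 CPM in C/+ and 8.25 to 28.2 CPM in WT. The same held for 10 cell cycle genes, with sums of 63.9 to 123 CPM in C/+ and 36.9 to 50.3 CPM in WT. Called higher were 4 of the 6 and 8 of the 10, against 3.42% of all tested genes. The part of these markers in the C/+ values of Elf5, Foxa1, Foxa2 and Grhl2 was not tested.

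Sox9 (ENSMUSG00000000567, chromosome 11, 112782224 to 112787760, plus strand) had few counts. There were 6 and 7 counts in C/C, 5, 10 and 1 in C/+, and 7, 2 and 14 in WT, which is 0.0588 to 0.467 CPM. At this depth a difference between groups was not detectable, and no fold change is given. Of 6 markers of cartilage, a tissue in which SOX9 is abundant, 1 passed the filter, Acan and Col9a1 had 0 counts in all 8 libraries, and Col2a1 stood at 0 to 0.0933 CPM. The 6 summed to 0.99 and 1.4 CPM in C/C, 0.647 to 2.61 CPM in C/+ and 0.522 to 0.75 CPM in WT.

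The libraries of a group also differed in which factor genes they had high or low. C/+ 3 was the highest of all 8 libraries for 4 of the 9 tested genes (Nkx2-1, Gata6, Klf5 and Elf5), and C/+ 1 was the lowest for 5 (Nkx2-1, Foxa1, Gata6, Klf5 and Grhl2). The 2 highest libraries for Nkx2-1 were C/+ 3 and C/C 2, at 802 and 682 CPM, and the same 2 were highest for Klf5, at 26.9 and 26.7 CPM. These were also the libraries with the largest share of mitochondrially encoded counts, 6.4% in C/+ 3 and 6.67% in C/C 2, against 2.9% to 4.92% in the other 6. None of the other tested factor genes had this pair as its highest libraries, and C/C 2 was the lowest library for Etv5. The part of RNA quality in the Nkx2-1 and Klf5 values was not tested.

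Groups that did not overlap were counted for the 9 genes and for all tested genes. Between C/+ and WT, 4 of 9 did not overlap (Foxa1, Foxa2 and Grhl2 lower, Elf5 higher), against 24.8% of all tested genes. This held for 2 of 9 in C/C against C/+ (Foxa1 and Cebpa, both higher in C/C), where 38.3% of all tested genes did not overlap, and for 5 of 9 in C/C against WT, where 43.3% did not. The 5 were Foxa1 and Gata6, higher in C/C, and Foxa2, Etv5 and Grhl2, lower in C/C. Each group enters a pair of comparisons, so these counts share libraries.

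Target genes were taken from a list of 11 surfactant, lamellar body, junction and secretory genes listed as targets of NKX2-1. Sequence upstream of 6 of the 11 was in the RefSeq promoter table (GRCm38.p6). Those of the surfactant protein genes Sftpa1 and Sftpb are shown, 5′ to 3′, because each holds a match to the core letters of an NKX2-1 motif within the 250 bases before the annotated start. The other 4 of these 6 genes (Abca3, Lamp3, Lpcat1 and Cldn18) held no NKX2-1 match. Capitals mark matches on either strand to CTCAAG (NKX2-1) and to TGTTTAC or TGTTTGC (FOXA), and TTGCNNAA (C/EBP) was also searched.
Sftpb, chr6:72304360-72304609, plus strand: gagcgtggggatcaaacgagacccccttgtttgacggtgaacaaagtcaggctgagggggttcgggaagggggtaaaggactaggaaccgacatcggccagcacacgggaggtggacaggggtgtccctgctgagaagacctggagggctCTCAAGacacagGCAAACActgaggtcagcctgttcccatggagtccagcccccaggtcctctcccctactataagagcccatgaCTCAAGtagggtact
Sftpa1, chr14:41131538-41131787, plus strand: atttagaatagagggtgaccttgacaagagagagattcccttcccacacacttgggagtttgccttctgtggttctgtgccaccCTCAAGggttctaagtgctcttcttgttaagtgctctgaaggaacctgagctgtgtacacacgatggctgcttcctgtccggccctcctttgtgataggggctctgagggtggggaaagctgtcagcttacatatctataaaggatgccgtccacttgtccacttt

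In Sftpb the FOXA match began 88 bases and the NKX2-1 matches 100 and 15 bases before the start, and in Sftpa1 the NKX2-1 match began 166 bases before it. Lamp3 and Cldn18 also held a FOXA match, and Abca3 and Lpcat1 held no match to any of the motifs. Of all 32851 promoters in the table, 13.3% held the NKX2-1 letters, 7.29% a FOXA match and 9.56% a C/EBP match in a window of this length. Among the 10 factor genes, 6 had promoters that were searched, and Gata6 lies on chromosome 18, which was left out. Of these 6, Foxa1 and Etv5 held a FOXA match, Foxa2 an NKX2-1 match and Elf5 a C/EBP match in at least 1 promoter. A match describes letters only and is not evidence of a bound site.

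The surfactant and lamellar body genes of the target list were not called by edgeR in any comparison, while its 2 club cell secretoglobins were called in C/+ against WT and in C/C against C/+. Between C/+ and WT, 2 of 11 were called, both higher (3.42% of all tested genes were called higher). Scgb1a1, the main secretoglobin of club cells, averaged 5966 ± 2115 CPM in C/+ and 468 ± 308 CPM in WT (log2FC 3.67, SE 0.44, edgeR adjusted p = 0.00906). Scgb3a2 averaged 129.8 ± 68.4 CPM in C/+ and 13.5 ± 7.31 CPM in WT (log2FC 3.30, SE 0.42, edgeR adjusted p = 0.00906). The same 2 genes were called lower in C/C against C/+, with log2FC of -3.74 and -4.53 (5.33% of all tested genes were called lower). Summed club cell markers, which include both genes, stood at 492 and 722 CPM in C/C and 5190 to 9759 CPM in C/+, and the part of club cells in these 2 genes was not tested. For C/C against WT, 0 of 11 were called by edgeR, against 2.98% of all tested genes. At an unadjusted p under 0.05 there were 4, and DESeq2 called 3, of 1408 genes it called in all. Sftpc, the surfactant protein C gene, averaged 165115 ± 2270 CPM in C/C and 121030 ± 14504 CPM in WT (log2FC 0.45, edgeR adjusted p = 0.0792). Sftpc passed with sex as a covariate (log2FC 0.59, edgeR adjusted p = 0.0324) and in DESeq2 (log2FC 0.45, DESeq2 adjusted p = 0.00781). Both C/C libraries were female, and WT 1 was the only female WT library, so the sex-adjusted value leans on WT 1. Sftpc stood at 104360 CPM in WT 1, against 127970 CPM in WT 2 and 130760 CPM in WT 3. Sftpb averaged 28393 ± 3244 CPM in C/C and 24277 ± 991 CPM in WT (log2FC 0.23, edgeR adjusted p = 0.293). The median log2FC of the 11 genes was -0.05 in C/+ against WT, 0.14 in C/C against C/+ and 0.11 in C/C against WT, and over all tested genes 0.00, -0.01 and -0.03.

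The FGF list held 13 genes of receptors, ETV4 and feedback inhibitors, the pathway that induces ETV5. Between C/+ and WT, 1 of 13 was called, higher, against 3.42% of all tested genes: Spry4, a feedback inhibitor of receptor tyrosine kinases, rose to 11.7 ± 3.87 CPM in C/+, against 4.52 ± 0.581 CPM in WT (log2FC 1.38, SE 0.23, edgeR adjusted p = 0.0156). That call was lost without WT 2 (edgeR adjusted p = 0.0602) or WT 3 (edgeR adjusted p = 0.0577), which left 0 of 13, and the number was 2 without C/+ 3 or WT 1. Endothelial and mesenchymal markers were higher in the same C/+ libraries, as given above, and their part in the Spry4 value was not tested. Between C/C and C/+, 1 of 13 was called, lower, against 5.33% of all tested genes: Il17rd, another inhibitor of FGF signalling, fell to 0.867 ± 0.267 CPM in C/C, against 5.60 ± 2.14 CPM in C/+ (log2FC -2.69, SE 0.52, edgeR adjusted p = 0.011). Without C/C 1 (edgeR adjusted p = 0.0879) or C/C 2 (edgeR adjusted p = 0.13) it was lost and 0 of 13 were called, and without C/+ 3 there were 2. Between C/C and WT, 0 of 13 were called by edgeR (2.98% of all tested genes were called), 1 without C/+ 3 or WT 1, 7 had an unadjusted p under 0.05, and DESeq2 called 3. Fgfr2, the epithelial FGF receptor gene, averaged 807 ± 57.2 CPM in C/C and 888 ± 13.3 CPM in WT (edgeR adjusted p = 0.495).

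Of 13 junction and epithelial genes associated with GRHL2, edgeR called 0 in each comparison. The shares of all tested genes called were 3.92% in C/+ against WT, 7.08% in C/C against C/+ and 2.98% in C/C against WT, so a count of 0 among 13 does not set these genes apart. At an unadjusted p under 0.05 there were 2 in C/+ against WT, 3 in C/C against C/+ and 1 in C/C against WT. DESeq2 called 1, 1 and 0 in those comparisons, of 1233, 1555 and 1408 genes it called in all. Cdh1, the E-cadherin gene, averaged 707 ± 44.3 CPM in C/C, 637 ± 56.4 CPM in C/+ and 796 ± 33.1 CPM in WT, with a log2FC of -0.32 in C/+ against WT (edgeR adjusted p = 0.111). It passed with sex as a covariate (log2FC -0.37, edgeR adjusted p = 0.0284) and in DESeq2 (log2FC -0.325, DESeq2 adjusted p = 0.0217). Spint2, a serine protease inhibitor gene, averaged 567 ± 12.6 CPM in C/C, 517 ± 44.8 CPM in C/+ and 473 ± 87.2 CPM in WT, and was not called. With sex as a covariate it passed in C/C against WT (log2FC 0.505, edgeR adjusted p = 0.0295, against a log2FC of 0.26 without it). Both C/C libraries were female, so this value too leans on WT 1, the only female WT library.

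**Figure D4:**
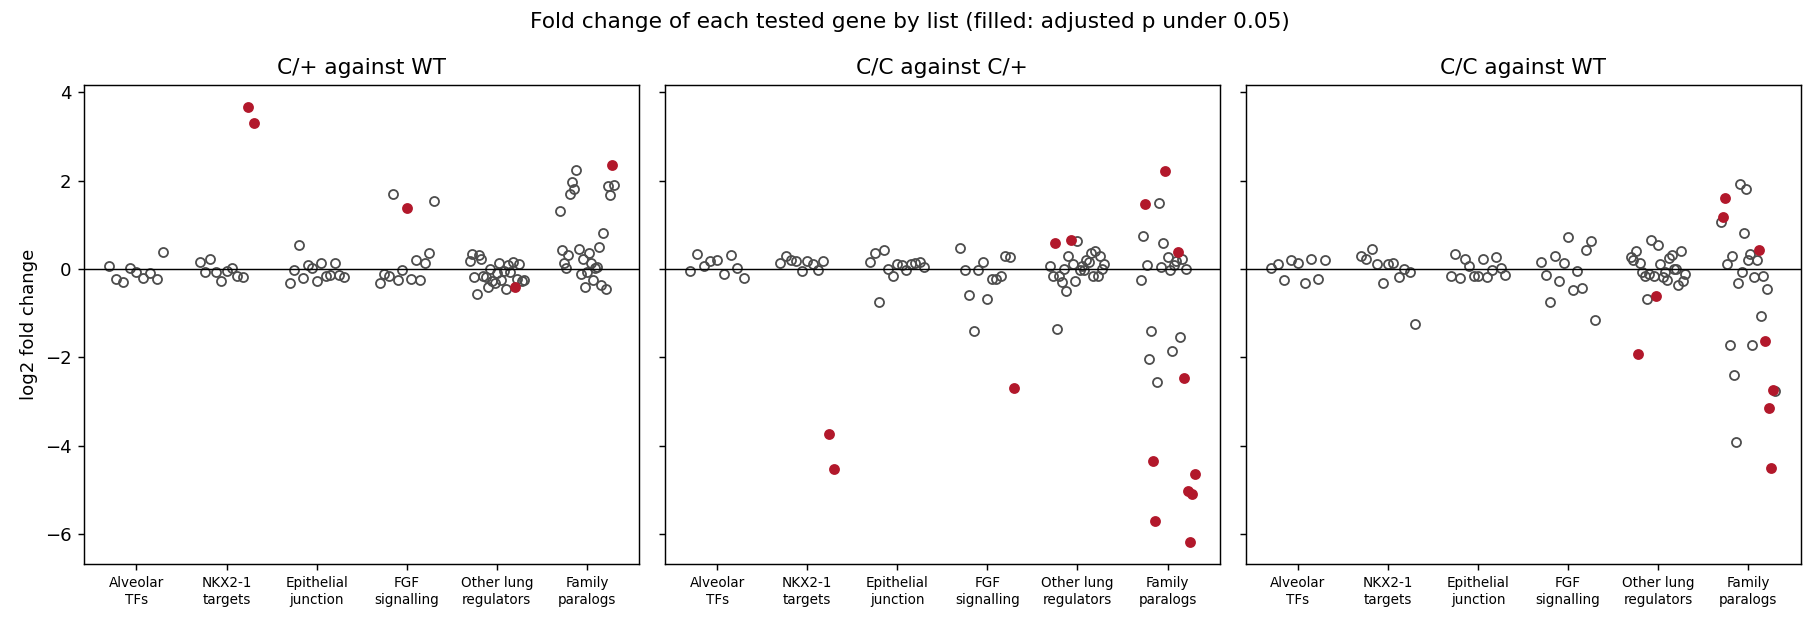
Log2 fold change (y axis) of every tested gene of the 10-gene set and of 5 lists in the 3 comparisons, with filled points for an edgeR adjusted p under 0.05. The alveolar factors lie between -0.32 and 0.38. Filled points appear among the NKX2-1 targets (Scgb1a1 and Scgb3a2), the FGF list, the other regulators and the paralogs (1 in C/+ against WT, 10 in C/C against C/+ and 7 in C/C against WT). The 10 genes and the lists were chosen with earlier results of these data known.

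Paralogs from the same families were next examined. This list, like the others, was chosen with earlier results of these data known. Its counts of calls are therefore no test against the shares of all tested genes. Of 27 tested, 10 were called in C/C against C/+, 3 higher in C/C and 7 lower, with a list median log2FC of -0.02, against 1.75% and 5.33% of all tested genes; the number was 2 without C/C 1 and 5 without C/C 2. Klf6, a Kruppel-like gene also known as an immediate early gene, rose to 642 ± 276 CPM in C/C, against 138 ± 38.9 CPM in C/+ (log2FC 2.21, SE 0.43, edgeR adjusted p = 0.0118). Cebpd, a stress-induced relative of Cebpa, rose to 70.0 ± 29.2 CPM in C/C, against 25.6 ± 6.93 CPM in C/+ (log2FC 1.46, SE 0.25, edgeR adjusted p = 0.00651). Elf3, an epithelial ETS gene, rose to 133 ± 2.49 CPM in C/C, against 102 ± 1.49 CPM in C/+ (log2FC 0.38, SE 0.09, edgeR adjusted p = 0.0268). Summed levels of 12 immediate early genes were higher in the same libraries, 12474 and 15699 CPM in C/C against 4035 to 6731 CPM in C/+, and their part in the Klf6 and Cebpd values was not tested.

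The 7 lower paralogs were Gata2, Gata3, Sox2, Sox7, Sox11, Sox17 and Sox18, of which all but Gata2 are listed after their values were seen. Gata2 fell to 0.915 ± 0.00397 CPM in C/C, against 18.7 ± 8.14 CPM in C/+ (log2FC -4.35, SE 0.69, edgeR adjusted p = 0.00478). Sox7, Sox17 and Sox18 are endothelial SOX factors, as background, and Gata2 and Sox17 are also in the endothelial marker list. The 12 endothelial markers summed to 41.8 and 50.1 CPM in C/C, against 557 to 939 CPM in C/+, and their part in these falls was not tested. Between C/+ and WT, 1 of 27 paralogs was called, higher, a share near the 3.42% of all tested genes: Sox17 rose to 12.8 ± 0.695 CPM in C/+, against 2.47 ± 1.96 CPM in WT (log2FC 2.36, SE 0.44, edgeR adjusted p = 0.0196). That call was lost without C/+ 1, C/+ 2, WT 2 or WT 3 in turn, when 0 paralogs were called, and the number was 3 without C/+ 3 and 5 without WT 1.

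Of the 27 paralogs, 7 were called in C/C against WT, 3 higher and 4 lower in C/C, against 1.62% and 1.36% of all tested genes. Elf3 averaged 133 ± 2.49 CPM in C/C and 99.4 ± 3.84 CPM in WT (log2FC 0.42, SE 0.09, edgeR adjusted p = 0.0392). Cebpd averaged 70.0 ± 29.2 CPM in C/C and 23.1 ± 2.33 CPM in WT (log2FC 1.60, SE 0.25, edgeR adjusted p = 0.0159), and Cebpb, its relative, 19.4 ± 7.87 CPM in C/C and 8.60 ± 1.45 CPM in WT (log2FC 1.18, SE 0.27, edgeR adjusted p = 0.046). The 12 immediate early genes summed to 12474 and 15699 CPM in C/C, against 3101 to 9053 CPM in WT, and their part in the Cebpd and Cebpb values was not tested. Sox7 averaged 0.418 ± 0.0721 CPM in C/C and 3.73 ± 3.24 CPM in WT (log2FC -3.15, SE 0.70, edgeR adjusted p = 0.0446). The count of 7 fell to 1 without C/C 1 or C/+ 2 and to 0 without C/C 2 or WT 2.

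Of 25 tested other regulators of lung epithelium, 1 was called in C/+ against WT, lower in C/+ (0.503% of all tested genes were called lower), 2 in C/C against C/+, both higher (1.75% were called higher), and 2 in C/C against WT, both lower (1.36% were called lower). Srebf1, the sterol regulatory factor gene of lipid synthesis, fell to 283 ± 27.8 CPM in C/+, against 379.9 ± 4.66 CPM in WT (log2FC -0.42, SE 0.10, edgeR adjusted p = 0.0427). Irx1, an Iroquois homeobox gene, rose to 405 ± 62.9 CPM in C/C, against 256 ± 57.6 CPM in C/+ (log2FC 0.66, SE 0.17, edgeR adjusted p = 0.0464). Foxp4, a forkhead gene of the lung, rose to 229 ± 25.4 CPM in C/C, against 153 ± 3.71 CPM in C/+ (log2FC 0.58, SE 0.13, edgeR adjusted p = 0.0235). Irx3 fell to 107 ± 16.0 CPM in C/C, against 163 ± 7.96 CPM in WT (log2FC -0.61, SE 0.12, edgeR adjusted p = 0.037). Foxj1, the regulator of motile cilia, fell to 4.75 ± 0.548 CPM in C/C, against 18.0 ± 1.44 CPM in WT (log2FC -1.92, SE 0.41, edgeR adjusted p = 0.0392). The 10 ciliated cell markers, Foxj1 among them, had a median log2FC of -1.44 in C/C against WT, with 1 called and 6 at an unadjusted p under 0.05, and summed to 173 and 191 CPM in C/C and 161 to 247 CPM in WT. Their part in the Foxj1 value was not tested. With 1 library left out in turn, these counts ran from 0 to 1 in C/+ against WT, from 0 to 5 in C/C against C/+ and from 0 to 4 in C/C against WT. Leaving out C/C 1, C/C 2 or C/+ 2 gave 0 in all 3 comparisons, as did WT 2 and WT 3 in C/+ against WT and in C/C against WT, WT 1 in C/+ against WT, and C/+ 1 in C/C against C/+.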

How the data were processed

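RNA was extracted from sorted cells with a column kit and DNase, and libraries were made with a stranded mRNA kit, per the labels' protocols. The authors deposited whole-number read counts per mouse Ensembl gene, not normalized, for 8 libraries. The submitters' processing notes name STAR 2.4.2a and DESeq2 without roles, and GRCh38, a human build, although the gene identifiers are of mouse; the sources used here do not give the counting tool, strand setting or annotation release. Columns were matched to samples by name. Symbols, lengths and coordinates came from GENCODE M21 (GRCm38), which named 42548 of 43432 identifiers.

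Genes were filtered with filterByExpr by group (14906 left), scaled by TMM (factors 0.915 to 1.06), and fitted in 1 edgeR 4.0.16 quasi-likelihood model (R 4.3.3) with a mean per group over all 8 libraries; tests were two-sided, with Benjamini-Hochberg adjustment over all tested genes. CPM are TMM-scaled, values are mean ± SD (n = 2 for C/C, 3 for C/+ and for WT), and SE is from the F statistic. The fit was tested on simulated data. Libraries of a group differed beyond sampling noise, at 12.2 to 73.5 chi-square units per gene, so none was merged. Depth of 17057216 counts or more makes counting error small for all the factor genes but Sox9. The 10 genes and the lists were chosen with earlier results of these data known. Genes named from a list are its up to 4 called genes with the highest mean CPM per comparison or, with none called, up to 2 with the highest mean CPM. Alternatives were DESeq2 size factors, DESeq2 1.42.0, no filter, a filter of 1 CPM in at least 5 libraries, fits of only the 2 groups compared, a block for the replicate number, sex (read from Xist, since the labels give none), and each library left out; running them on the lists was decided after the data were seen.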

Additional observations from a re-analysis of the deposited data

How the results depend on the processing

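The counts of called factor genes changed as follows. In C/+ against WT, 0 became 1 with no low-count filter (Elf5), 2 with sex as a covariate (Elf5 and Foxa2) and 1 by DESeq2 (Foxa2), and stayed at 0 with each library left out. In C/C against C/+, 0 became 1 by DESeq2 (Foxa1) and ran from 0 to 1 with a library left out. In C/C against WT all alternatives gave 0. Of 405 alternative log2 fold changes, 373 kept direction and side of the threshold, 6 passed it and 26, over 10 pairs of gene and comparison, changed sign, all without a call. With sex as a covariate, Gata6 (-0.037) and Cebpa (0.039) in C/+ against WT, Grhl2 in C/C against C/+ (-0.026), and Nkx2-1 (-0.10) and Klf5 (-0.086) in C/C against WT changed sign. With at least 1 CPM in 5 libraries, Grhl2 in C/C against C/+ was -0.0234 and Nkx2-1 in C/C against WT was -0.00209. With each library left out, C/+ against WT gave -0.12 to 0.15 for Nkx2-1, -0.13 to 0.11 for Gata6, -0.19 to 0.032 for Cebpa, -0.35 to 0.11 for Klf5 and -0.0174 to 0.229 for Spint2. C/C against C/+ gave -0.17 to 0.12 for Nkx2-1, -0.00063 to 0.10 for Foxa2 and -0.046 to 0.054 for Grhl2. C/C against WT gave -0.12 to 0.12 for Nkx2-1 and -0.0058 to 0.22 for Cebpa.

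Over all tested genes, the 585 calls of C/+ against WT became 1299 with no filter, 1700 with sex, 356 with the compared groups alone, 1233 by DESeq2 and 103 to 729 with a library left out. The 1056 of C/C against C/+ became 1614 with no filter and 185 to 1308 with a library left out. The 444 of C/C against WT became 1456 with no filter, 1348 with sex, 1408 by DESeq2 and 30 to 782 with a library left out. Whether libraries of different groups with the same number belong together was not settled. Deviations from group means correlated at -0.206 to 0.087 between same-numbered libraries and at -0.132 to 0.18 between differently numbered ones. Deviations within a group cancel out, so the C/C libraries gave mirrored values, and these correlations cannot decide the question. With the replicate number as a block, C/C against WT had 176 calls, Nkx2-1 in C/C against C/+ was 0.018, and no factor gene was called. The cause of these shifts was not tested. Depth limits Sox9 alone.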

Other observations

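The ratio of Foxa1 to Foxa2 counts within a library, which needs no scaling between libraries, was looked at after the values were seen. It was 1.57 and 1.46 in C/C, 1.17, 1.29 and 1.27 in C/+, and 1.19, 1.18 and 1.16 in WT. Both C/C libraries lay above the other 6. The log2 ratio was higher by 0.28 in C/C than in C/+ and by 0.36 in C/C than in WT, each with p = 0.1 in a two-sided exact permutation test, the smallest p that 10 arrangements allow. Because the ratio was picked with these values in view, these p-values add no support to the difference. Between C/+ and WT it differed by 0.08 (exact permutation p = 0.3).

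The 10 factor genes together took 2082 and 2120 CPM in C/C, 1983, 2069 and 2231 CPM in C/+, and 2023, 2326 and 2222 CPM in WT, with groups that overlapped.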
